A study of Mus musculus with 6 samples.

Results

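Laminins are the cross-shaped proteins that organise basement membranes, the thin sheets of matrix on which epithelia rest. Each laminin is a heterotrimer of 1 alpha, 1 beta and 1 gamma chain and is named by the numbers of its chains, so that laminin-511 holds the chains encoded by Lama5, Lamb1 and Lamc1. The beta and gamma chains pair inside the cell, and the alpha chain that joins them carries the domains that bind integrins and dystroglycan. In mammary tissue, laminins lie in the basement membrane around the ducts and lobules.

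The laminin genes described are Lama1, Lama2, Lama3, Lama4, Lama5, Lamb1, Lamb2, Lamb3 and Lamc1, and were found as every probe that the scanner files list under one of these 9 symbols. They have 16 probes, of 41174 probes for 27670 genes on the array. The gamma chain Lamc3, with 3 probes, is given beside them because several trimers cannot be read without it, which makes 10 genes and 19 probes. The 9 genes were chosen by family from a list proposed with the IRF7 against base vector differences on these arrays already known. Their differences are therefore given as a description: they stood in the fit across all genes, but no p is given for them. Where they fell against its threshold is stated as a description and not as a test. The groups of genes that act with laminins were also drawn up with earlier results of these arrays known, so their counts are descriptions too, beside adjusted p-values for single genes.

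The cells were 4T1.2, a line from a BALB/c mouse mammary tumour related to 4T1. IRF7 cells carried the retroviral vector pMSCV with Irf7, a transcription factor of the type I interferon response. Base-vector cells carried the same vector without an insert. Both populations were selected in puromycin, cloned from single cells and then made by pooling several clones, so each group is 1 pooled population read in 3 independent experiments with 1 single-colour array each. The p-values measure the spread between those experiments, and not between populations transduced separately.

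On each array 54.3 to 59.7% of the 43379 mouse spots were well above background, 56.8 to 59.7% in IRF7 and 54.3 to 56.8% in base vector. Irf7 itself read processed signals of 4486, 4963 and 5012 in IRF7 cells, against 246.4, 195.4 and 210.5 in base-vector cells. That is a log2 difference of 4.28 (SE 0.049, limma adjusted p = 3.16e-07). The 3 IRF7 arrays shared slide 1 with base-vector replicate 1, and base-vector replicates 2 and 3 were alone on slide 2, so the within-slide value of each comparison rests on a single base-vector array. Of 8 epithelial markers 7 were detected in both groups, all except Krt19. Their summed signal, unscaled and mostly from Krt18 and Krt8, was 508634 to 563616 in IRF7 cells and 391317 to 453018 in base-vector cells. After scaling Krt18 read -0.06, Krt8 0.15 and Cdh1 0.04 on the log2 scale, whereas Krt7 rose by 2.63 (limma adjusted p = 1.16e-06). Epcam also rose, by 1.196 (limma adjusted p = 0.0017), while Krt5 read 0.3 and Krt14 -0.207.

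The probes shown here read Lama4, the chain with the largest difference, Lamb1, and Lamb3, the chain missing from laminin-332 in both groups. The sequences come from the array's design as deposited, 5′ to 3′, with positions on mouse build mm7, and the capitals in the first mark the 29 bases that a further Lama4 probe (A_51_P212420, chr10:38885787-38885846) also covers. A_52_P7554, A_51_P244287 and A_51_P223656 are matched over 791, 1348 and 2532 bases of the genome for a probe of 60 bases, so each is aligned in separate pieces. All are on the plus strand. No exon or UTR annotation of this build was used.
Lama4 A_52_P7554, chr10:38885025-38885815: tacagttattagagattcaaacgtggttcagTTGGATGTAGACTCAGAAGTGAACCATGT
Lamb1 A_51_P244287, chr12:29168364-29169711: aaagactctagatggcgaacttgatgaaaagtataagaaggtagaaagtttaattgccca
Lamb3 A_51_P223656, chr1:192893546-192896077: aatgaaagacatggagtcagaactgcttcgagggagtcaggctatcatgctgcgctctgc

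Both populations held RNA for a common core of Lama4, Lama5, Lamb1, Lamb2 and Lamc1. A chain was counted as detected in a group when any of its probes was well above background on at least 2 of the 3 arrays. By that measure 6 of the 10 laminin genes were detected in IRF7 cells and 5 in base-vector cells, and Lama3 made the difference. Lama1, Lama2, Lamb3 and Lamc3 had no probe well above background on any array. Their signals lay between 5.82 and 22.2, below the lowest signal of 27.97 to 34.05 that counted as well above background on these arrays, and many were substitute values that the scanner software sets for spots without a measurable signal. The plot of chain signals shows these genes as open points below the grey band.

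**Figure D1:**
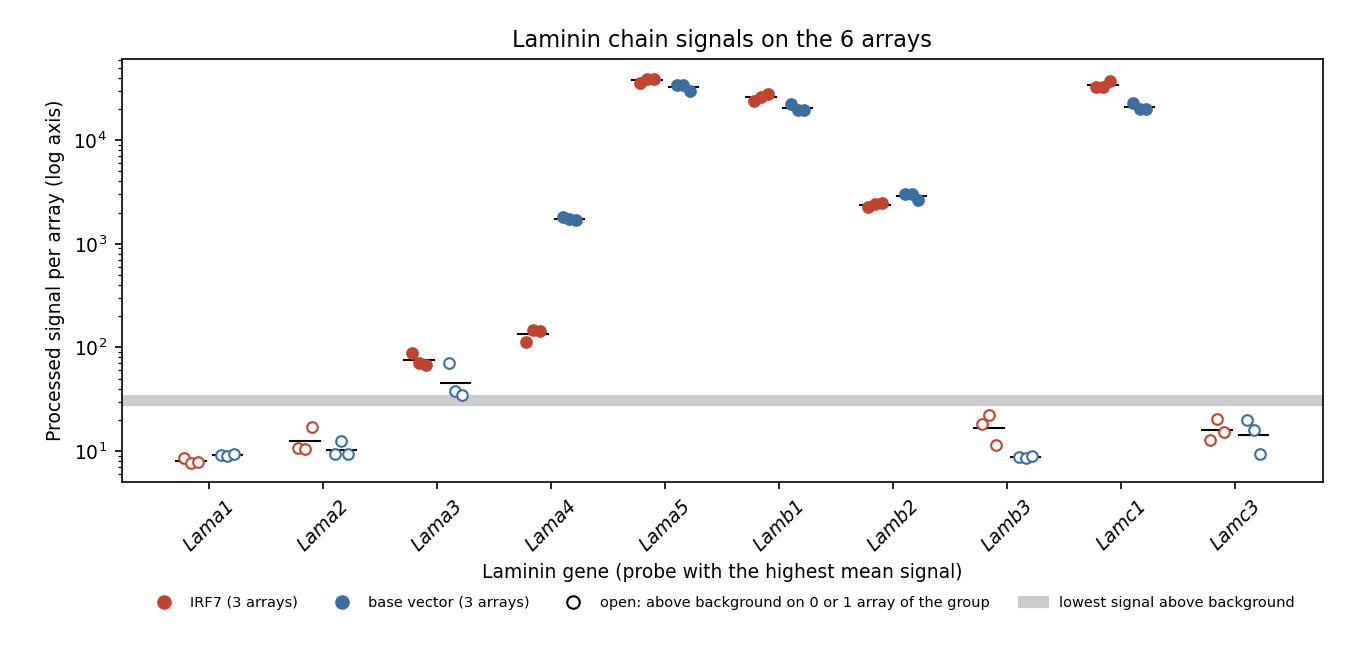
Processed signal of 10 laminin genes on each array (log axis, arbitrary units), for the probe with the highest mean signal; IRF7 arrays are left of the base-vector arrays and the black line is the mean of the 3 logs. Lama4 lies at 112.6 to 145.9 in IRF7 and at 1706 to 1819 in base vector, and signals of different genes are not comparable because each probe binds differently.

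Of 14 laminins in the standard nomenclature, 6 had RNA for all 3 chains in IRF7 cells and 4 in base-vector cells. Laminin-411, laminin-421, laminin-511 and laminin-521 had every chain in both groups. Laminin-311 and laminin-321, which join Lama3 to Lamb1 or Lamb2 and to Lamc1, had every chain in IRF7 cells and lacked detected Lama3 RNA in base-vector cells. Laminin-332, the anchor of hemidesmosomes, lacked Lamb3 in both groups and Lama3 as well in base-vector cells. Laminin-111 and laminin-121 lacked Lama1 in both groups, and laminin-211 and laminin-221 lacked Lama2. Laminin-213, laminin-423 and laminin-523 lacked Lamc3, the first of them Lama2 also. Requiring all 3 arrays, or the brightest probe only, gave the same chains and the same trimers in each group. Neither check separates slide from group for laminin-311 and laminin-321, which rest on Lama3. With probe A_52_P141739 Lama3 was well above background on base-vector replicate 1 (71.2), which was on slide 1. It was not on base-vector replicates 2 and 3 (37.6 and 34.5), on slide 2. With probe A_51_P167489 Lama3 was above background on no base-vector array, replicate 1 included. RNA on an array shows which chains could be made, and neither the protein nor its assembly was measured.

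Of the 9 genes, 6 had a probe well above background on at least 3 of the 6 arrays and entered the fit across all genes, and 9 of the 16 probes passed that filter. Lama1, Lama2 and Lamb3 did not enter it. In that fit 4 of the 6 lay past the threshold of 0.05 on limma's adjusted p, Lamb1 and Lamc1 higher and Lama4 and Lamb2 lower, beside 61.0% of all 15413 genes fitted, and this count is not a test of genes chosen with the contrast known. Higher calls made up 31.9% of all genes and lower calls 29.1%. The median log2 difference was 0.08 over the 6 genes and 0.03 over all genes, whose median size was 0.24.

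Lama4 encodes the alpha chain of laminin-411 and laminin-421, known from vessel walls, fat and other mesenchymal tissue, and it was about 15-fold lower in IRF7 cells. Its brightest probe, A_51_P212420, read 112.6, 145.9 and 144.2 in IRF7 cells, against 1819, 1724 and 1706 in base-vector cells. All IRF7 arrays lay far below all base-vector arrays and were still well above background. The log2 level, taken relative to the 75th percentile of its array, averaged -3.37 ± 0.14 in IRF7 cells and 0.54 ± 0.05 in base-vector cells (SD, n = 3 each). The log2 difference was -3.91 (SE 0.074), which is 15.1-fold lower, and was -3.87 within slide 1 and -3.34 with the normexp background model.

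The other Lama4 probes read the same direction. A_52_P7554, the split probe printed above, had 48.7, 67.0 and 71.1 in IRF7 cells, against 909.8, 871.4 and 856.8 in base-vector cells, a log2 difference of -4.04 (SE 0.11). Sharing 29 bases with the brightest probe, it is not a separate reading of the transcript. Another probe gave 11.0, 14.9 and 17.6 in IRF7 cells and 269.0, 246.4 and 232.8 in base-vector cells. No IRF7 array was well above background with this probe, so Lama4 was at least 9.79-fold lower there. For such probes the bound sets the bright group's mean against that of the dim group. Each array of the dim group counts at its lowest signal well above background, or at the probe's own signal where that was higher. The last probe, A_52_P78714, stayed below background throughout, at 8.78, 7.94 and 8.19 in IRF7 cells and 31.0, 27.1 and 26.1 in base-vector cells. With normexp, which adds an offset of 50 and so compresses dim signals, A_52_P7554 read -2.97 and the probe that fell below background read -2.0.

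Lama4 is also made by fibroblasts and endothelial cells, whose markers were read on the same arrays. Of 6 fibroblast markers, 2 were detected in IRF7 cells and 3 in base-vector cells, and their summed signal was 3206 to 3654 in IRF7 cells and 6475 to 7328 in base-vector cells, nearly all of it from Pdgfra. Col1a1 and Lum were below background on all arrays, and Col3a1 was above it on a single base-vector array. Pdgfra fell by 1.21 on the log2 scale (limma adjusted p = 3.09e-06), and the small proteoglycan gene Dcn was at least 3.11-fold lower in IRF7 cells (limma adjusted p = 4.16e-05 for the fitted difference). Dcn passed the filter only through the base-vector arrays, so its p is no support for the difference. Col1a2, detected in both groups, read 62.8, 75.4 and 60.9 in IRF7 cells and 65.8, 41.7 and 36.9 in base-vector cells, a log2 difference of 0.30 (limma adjusted p = 0.23). Of 6 endothelial markers, 3 were detected in IRF7 cells and 2 in base-vector cells, with summed signals of 912.5 to 1021 in IRF7 cells and 331.9 to 372.9 in base-vector cells, and Pecam1, Kdr and Emcn were below background on every array. Among those detected, Cdh5 rose by 1.05 (limma adjusted p = 1.07e-05) and Tie1 by 1.57 (limma adjusted p = 1.4e-05). Of 6 leukocyte markers, 4 were detected in IRF7 cells and 3 in base-vector cells, and their summed signal was 912.4 to 1029 in IRF7 cells and 745.7 to 921.1 in base-vector cells. For 5 muscle and Schwann cell markers those counts were 2 in IRF7 cells and 1 in base-vector cells, and the sums were 152.9 to 177.0 in IRF7 cells and 107.6 to 165.6 in base-vector cells. The part of such differences in the Lama4 result was not tested. In pooled cells, fewer cells of a kind and less RNA per cell cannot be told apart.

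The 5 genes whose centred levels over the 6 arrays lay nearest to those of Lama4 were Trp53i11 (Euclidean distance 0.13 on the log2 scale), Gpc4 (0.32), Ogn (0.47), Pipox (0.54) and Crocc2 (0.58), of 15409 genes compared. Gpc4 encodes a cell surface heparan sulfate proteoglycan and Ogn a small matrix proteoglycan. Their log2 differences ran from -4.27 for Ogn to -3.61 for Crocc2. None of the 5 lies on chromosome 10 with Lama4. This likeness is a description over 6 arrays that fall into 2 groups.

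Lama3, the alpha chain of the epithelial laminin-332, laminin-311 and laminin-321, was the only chain whose detection differed between the groups, and its probes were dim and disagreed in size. The gene is known to have more than one promoter and to give a short and a long form. Probe A_51_P167489 read 58.0, 95.8 and 111.5 in IRF7 cells, against 16.9, 37.0 and 36.8 in base-vector cells, without overlap. It was well above background on all 3 IRF7 arrays and on no base-vector array, which makes Lama3 at least 2.09-fold higher, with a fitted log2 difference of 1.39 (SE 0.41) that was 0.46 with normexp and 2.24 within slide 1. Probe A_52_P141739, at mm7 chr18:12806795-12806854 and 125 kb before the other, read 88.0, 70.5 and 68.3 in IRF7 cells and 71.2, 37.6 and 34.5 in base-vector cells. Its groups overlapped: base-vector replicate 1, the single base-vector array well above background with this probe, lay within the IRF7 range. The log2 difference of 0.53 (SE 0.28) was -0.02 within slide 1, 0.17 with normexp, 0.96 with the mean of both probes and 0.81 without base-vector replicate 1. It lay short of the threshold in the fit over all 6 arrays, and past it without that array, with the mean of both probes and without scaling.

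Lama5, the widely expressed alpha chain of laminin-511 and laminin-521, was at a like level in both groups, with a difference smaller than its standard error. Its single probe is placed on only 15 bases of mm7 for a probe of 60 bases. The probe read 35665, 38720 and 39283 in IRF7 cells and 33738, 33835 and 30072 in base-vector cells. These raw signals do not overlap, but the levels relative to each array's 75th percentile do, at 4.78 ± 0.02 in IRF7 cells and 4.76 ± 0.11 in base-vector cells (SD, n = 3 each). The log2 difference was 0.02 (SE 0.059). Without scaling between arrays it was 0.22, where the median of all genes was 0.23.

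Lamb1, the beta chain of laminin-411 and laminin-511 among others, was slightly higher in IRF7 cells. Its split probe, printed above, read 23820, 26058 and 27764 in IRF7 cells, against 22427, 19494 and 19695 in base-vector cells. The scaled levels did not overlap, and the log2 difference was 0.13 (SE 0.029), or 1.10-fold. The difference was 0.08 with quantile normalization, 0.10 with median centring and 0.11 within slide 1, and its position past the threshold was lost in all 3.

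Lamb2, the beta chain of laminin-421 and laminin-521 among others, is best known from the neuromuscular junction and the kidney's filter. It read 2260, 2409 and 2498 in IRF7 cells, against 3037, 3048 and 2645 in base-vector cells. All IRF7 arrays were below all base-vector arrays, by 0.48 on the log2 scale (-0.48, SE 0.064), or 1.40-fold lower. The scanner files place this probe on an unplaced stretch of mm7, so its neighbours could not be read.

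Lamc1, the gamma chain shared by all 6 laminins with a full set of chains in IRF7 cells, was higher there. It read 32912, 32914 and 37228 in IRF7 cells, against 23041, 20081 and 20207 in base-vector cells, without overlap. The log2 difference was 0.50 (SE 0.041), or 1.42-fold, and 0.48 within slide 1.

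Lamb3, the beta chain of laminin-332, was not measurable in either group. Its split probe, printed above, read 18.4, 22.2 and 11.4 in IRF7 cells and 8.82, 8.47 and 8.92 in base-vector cells, all below background, so no fold is given.

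**Figure D2:**
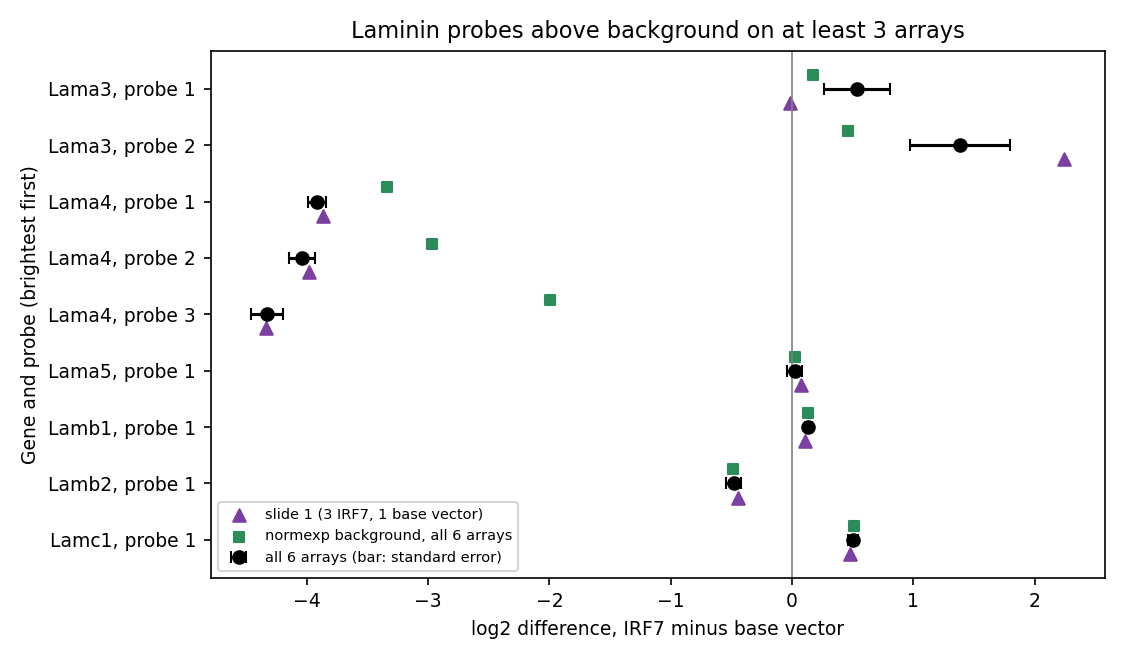
Log2 difference, IRF7 minus base vector, for the 9 laminin probes well above background on at least 3 arrays; black points with standard errors use all 6 arrays, purple triangles slide 1 alone and green squares the normexp background model. The 2 Lama4 probes above background in both groups lie at -4.04 and -3.91, the third was below background in IRF7 and its point is a fitted value and no bound, and the Lama3 probes spread widely between settings.

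Neighbouring genes within 2 Mb were read to see whether each chain moved with its surroundings. Over all fitted genes the shares past the threshold were 31.9% higher and 29.1% lower, and the median log2 difference was 0.03. Around Lama4, 19 tested genes had a median log2 difference of -0.13 and ranged from -2.39 to 1.05, with 5 higher and 9 lower past the threshold. The lowest of them was Marcks, about 2.0 Mb away, and the 2 nearest, Fam229b and Tube1, read -0.27 and -0.19. Around Lamc1, 28 genes had a median of 0.20, with 17 higher and 3 lower. Around Lamb1, 23 genes had a median of 0.19, beside the 0.13 of Lamb1 itself, with 13 higher and 2 lower. The medians were 0.27 over 25 genes near Lamb3, 0.18 over 17 near Lama3, 0.01 over 48 near Lama5, -0.16 over 17 near Lama1 and 0.01 over 9 near Lama2.

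**Figure D3:**
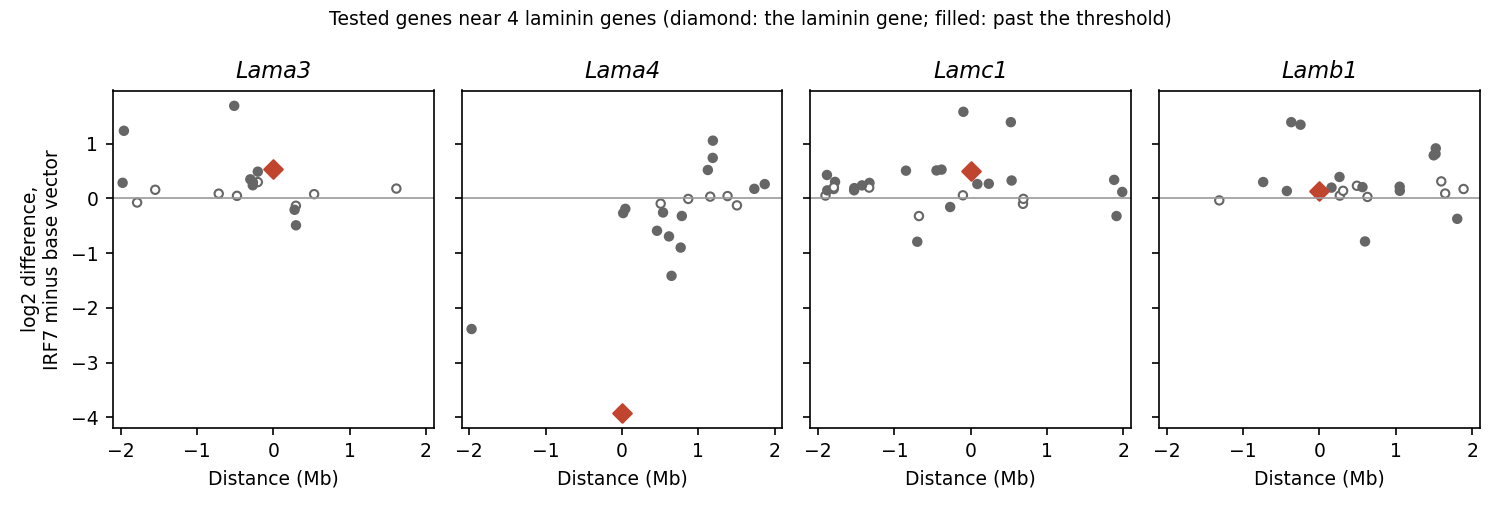
Log2 difference, IRF7 minus base vector, of tested genes against their distance in Mb from 4 laminin genes; red diamonds are the laminin genes, filled circles are neighbours past the threshold and open circles are not. Lama4 lies at -3.91, below its lowest neighbour at -2.39, while Lama3, Lamb1 and Lamc1 each lie within the range of their neighbours.

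RefSeq promoters (assembly GRCm38.p6) of 300 bases were given for 5 of the laminin genes, Lama2, Lama5, Lamb1, Lamb2 and Lamb3, the last with 2 starts. They were searched on both strands for motifs of interferon regulatory factor sites, AANNGAAA and the 9-letter GAAANNGAA, which can overlap each other. Lamb2 had 2 matches to AANNGAAA, and the other promoters had none. Among all 32851 promoters, 23.9% held that motif. No laminin promoter held GAAANNGAA, which is in 8.6% of all promoters. A match is a stretch of letters and not a measured site.

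The receptors that bind laminins moved in both directions. Of 14 receptor genes tested, 6 were higher and 4 lower in IRF7 cells and 4 did not pass, with a median log2 difference of -0.01. Among all genes fitted 31.9% were higher and 29.1% lower, which is the background for this count and for those of the gene groups below. With probes well above background on all 6 arrays, 13 receptors were tested, 5 higher and 4 lower. Under that filter 14157 genes were fitted, 4743 higher and 4445 lower. Bcam, the Lutheran glycoprotein that binds Lama5, fell by 1.49 (limma adjusted p = 1.13e-05), with signals of 159.7, 169.6 and 198.3 in IRF7 cells and 450.3, 427.8 and 405.1 in base-vector cells. Mcam, an immunoglobulin family receptor that binds laminin-411, fell by 1.05 (limma adjusted p = 1.55e-05), and its second probe read -1.35. Sdc1, a heparan sulfate proteoglycan that binds the G domains of laminins, rose by 0.68 (limma adjusted p = 3.34e-05).

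Itgb4, which pairs with Itga6 as the integrin of hemidesmosomes, rose by 0.60 (limma adjusted p = 3.24e-05). Its second probe read 0.64 and the third -0.52, so its probes disagree in sign. Itga6 rose by 0.28 (limma adjusted p = 0.000972), and Itga3, the alpha chain of another laminin-binding integrin, read -0.04 (adjusted p = 0.392). Itga2, a receptor of collagen that also binds laminin, was well above background only on the IRF7 arrays and was at least 1.65-fold higher. Its fitted log2 difference of 1.65 (limma adjusted p = 0.0154) was 0.46 with normexp. Itga2 passed the filter only through the IRF7 arrays, so this p is no support for the difference. Dag1, which encodes dystroglycan, read -0.02 (adjusted p = 0.592).

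Proteins that join laminins in the basement membrane also split. Of 24 genes, 23 were on the array and 15 were tested, of which 6 were higher, 5 lower and 4 not past the threshold, with a median of 0.02. With median centring 7 passed in place of 11. Nid1, or nidogen, which links the Lamc1 chain to collagen IV, fell by 0.86 on the log2 scale (limma adjusted p = 1.55e-05), at 213.1, 239.2 and 258.4 in IRF7 cells and 401.0, 352.2 and 364.9 in base-vector cells. Agrn, or agrin, a proteoglycan that binds the laminin coiled coil, rose by 0.83 (limma adjusted p = 3.53e-05). Ecm1, a secreted matrix protein, rose by 0.84 (limma adjusted p = 1.47e-05), and Tinagl1, a matrix protein of basement membranes, by 0.81 (limma adjusted p = 3.47e-05). The second probes of Agrn, Ecm1 and Tinagl1 read 0.75, 0.54 and 0.66.

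Dystroglycan binds laminin through a sugar chain, matriglycan, built by a series of enzymes. All 13 of these genes were tested, and 5 were higher, 4 lower and 4 not past the threshold, with a median of 0.02. With median centring 4 passed in place of 9. Pomt1, which adds the first mannose, fell by 0.60 with its brighter probe (limma adjusted p = 2.14e-05), while a dimmer probe, above background on 1 base-vector array, read 0.55. With the mean of its probes Pomt1 read -0.02 (adjusted p = 0.902). B3galnt2, which extends the core sugar, rose by 0.24 (limma adjusted p = 0.00111), and did not pass with median centring (adjusted p = 0.134).

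Hemidesmosomes tie laminin-332 to keratins, and the dystroglycan complex ties laminins to actin. Of 16 genes of these structures 11 were tested, and 5 were higher, 1 lower and 5 not past the threshold, with a median log2 difference of 0.26. Col17a1 and Sgce, counted as higher, passed the filter only through the IRF7 arrays. With probes well above background on all 6 arrays, 8 genes were tested, 3 higher and 1 lower. Plec, the plakin that joins integrin to keratin, rose by 1.40 with its brightest probe (limma adjusted p = 1.34e-06), at 12074, 12897 and 13520 in IRF7 cells and 4565, 4073 and 4037 in base-vector cells. Its 4 other probes read 0.03, 0.20, 0.32 and 0.49, so the size depends on the stretch of this long gene. Col17a1, the hemidesmosome collagen, was well above background only on IRF7 arrays, which bounds its rise at 1.42-fold or more. The fit gave 2.33 (limma adjusted p = 5.9e-05), which was 0.49 with normexp. As the filter was passed through the IRF7 arrays alone, this p is no support for the difference.

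Sntb2, a syntrophin, rose by 0.39 (limma adjusted p = 8.09e-05). Cd151, a tetraspanin partner of laminin-binding integrins, fell by 0.59 (limma adjusted p = 0.000954). Sgce, a sarcoglycan, was also above background only on IRF7 arrays, by at least 1.66-fold. Like Col17a1, Sgce passed the filter only through those arrays, so its p is no support for the difference. The fit gave a log2 difference of 1.88 (limma adjusted p = 0.0178), which was 0.83 with slide as a block (adjusted p = 0.0848) and 0.42 with normexp. It did not pass without IRF7 replicate 2 (adjusted p = 0.0521), IRF7 replicate 3 (0.0562) or base-vector replicate 3 (0.0548).

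Netrins are secreted proteins that share domains with laminin chains, and several proteases cut laminins. Of 14 such genes 7 were tested, and 1 was higher, 5 lower and 1 not past the threshold, with a median of -0.16. With median centring, with no scaling, within slide 1 and with slide as a fixed block, 3 passed. Ntn1, a guidance factor, was above background only on base-vector arrays and was at least 4.62-fold lower in IRF7 cells, at 25.9, 25.0 and 29.6, against 126.9, 110.9 and 121.6 in base-vector cells. Its fitted difference of -2.36 (limma adjusted p = 3.36e-06) was -1.18 with normexp. Ntn1 passed the filter only through the base-vector arrays, so this p is no support for the difference. With probes well above background on all 6 arrays, 6 genes of this group were tested, 1 higher and 4 lower. Ntn3 fell by 0.90 (limma adjusted p = 9.95e-06).

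Plau, or urokinase, which activates plasmin, rose by 0.76 (limma adjusted p = 5.29e-05). Mmp14, a membrane metalloproteinase known to cut laminin, had a second probe that read -0.335 and fell by 0.18 with its brighter probe (limma adjusted p = 0.0107). It did not pass with slide as a block (adjusted p = 0.0711), within slide 1 (0.0959) or with median centring (0.123), and read 0.02 without scaling, where the median of all genes was 0.23.

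**Figure D4:**
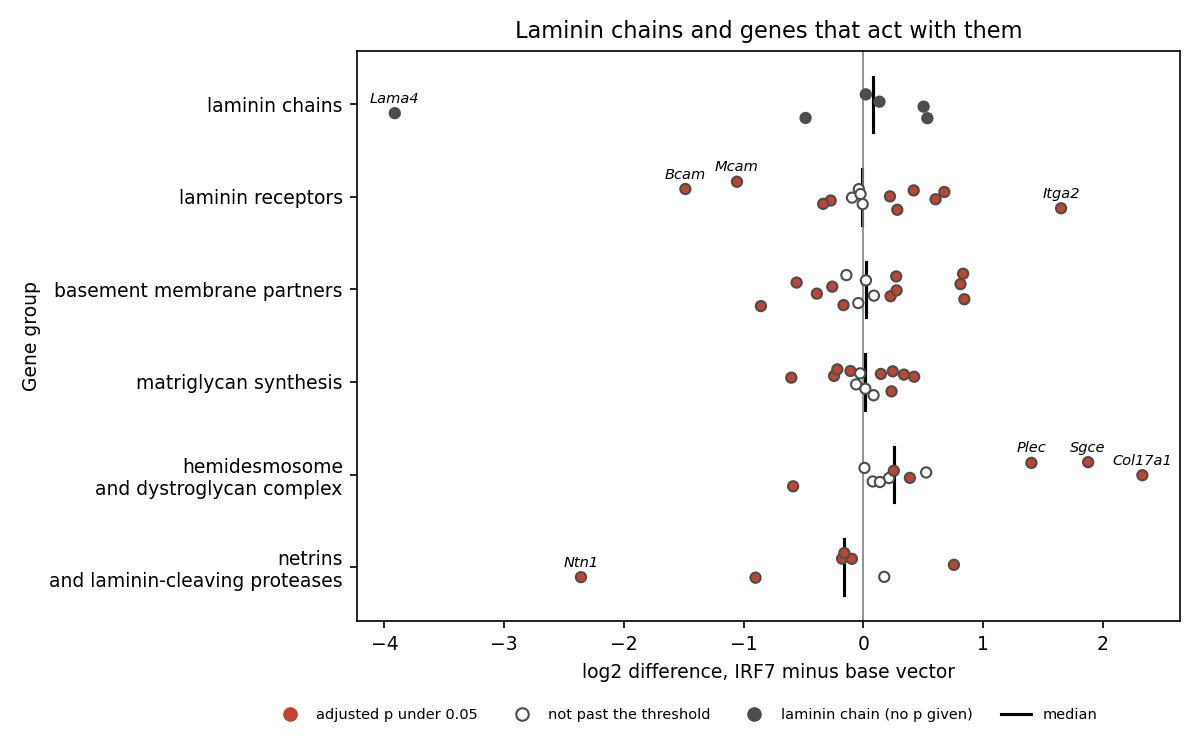
Log2 difference, IRF7 minus base vector, of the 6 laminin chains that entered the fit and of the tested genes of 5 groups that act with laminins; red points have an adjusted p under 0.05, open points do not, grey points are the laminin chains, shown with no p, and vertical bars are medians. Medians lie between -0.16 for the netrins and proteases and 0.26 for the hemidesmosome and dystroglycan complex genes.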

How the data were processed

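Single-colour Agilent arrays of Cy3-labelled cRNA from 6 cultures were used, grouped by sample title. Per the file headers, the deposited processed signal is a linear intensity, background-subtracted and detrended within each array by Agilent Feature Extraction 9.5.3.1 (version per the submitters' processing notes) and not scaled between arrays. The authors' deposited value table holds the same intensities (largest difference 0). Controls (1639 of 45018 spots) and outlier spots were left out and spots of a probe averaged. Of 41174 probes, 22951 were named through their accession, 6659 by symbol and 3109 by an older symbol in the gene table of GRCm38.p6, while 8455 keep the files' own name.

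The level fitted was the log2 signal less its array's 75th percentile. It was fitted with limma 3.58.1 (R 4.3.3), lmFit and eBayes, over 15413 genes with a probe that 3 or more of the 6 arrays read well above background, the brightest probe standing for the gene. P-values were adjusted by Benjamini-Hochberg over all genes, threshold 0.05. The fit was tested on simulated data. Python 3.11.15 was used for the rest.

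The members and lists were chosen with earlier results of these data known. Genes were named by rule: Irf7, every laminin chain, the 4 genes of each list with the smallest p, any list gene at least 2-fold changed, and the 5 nearest to Lama4. A few genes falling under the rule are left unreported, and list counts include them. Itga6, Itga3 and Dag1, the markers and the neighbours Marcks, Fam229b and Tube1 were named after their values were seen. Alternatives covered background, scaling, filters, probe choice, moderation, slide, replicate number and each array left out.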

Additional observations from a re-analysis of the deposited data

How the results depend on the processing

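Of the 6 fitted chains, 4 kept their direction under every alternative run. Lama3 read -0.02 within slide 1 and with slide as a fixed block, and Lama5, which lay near 0 except without scaling (0.22), read -0.05 with quantile normalization, -0.01 with median centring and -0.02 to 0.08 with an array left out. Median centring left 6203 genes past the threshold in place of 9398, with 7 of the basement membrane partners, 4 of the matriglycan genes and 3 of the netrins and proteases. Keeping dim probes, 14500 of 27670 genes passed, 4753 higher and 9747 lower, against 4915 higher and 4483 lower in the filtered fit. Without scaling 8141 passed, 6438 higher and 1703 lower, and the median of all genes moved to 0.23. There Lamb1 read 0.33, Lamb2 -0.28, Lamc1 0.70 and Lama4 -3.71, and Mmp14 crossed 0 to 0.022, so relative to that median all 5 kept their direction, and 3 of the netrins and proteases passed. With slide as a fixed block, and within slide 1, 3 of the netrins and proteases passed. The causes were not tested. Leaving out each array in turn gave 8265 to 9072 genes, 4 to 5 laminin chains, 10 to 10 receptors, 10 to 12 basement membrane partners, 7 to 8 matriglycan genes, 5 to 8 hemidesmosome and dystroglycan complex genes and 5 to 5 netrins and proteases.

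Whether samples of the same number were handled together is not given by their titles. The deviations of same-numbered arrays correlated at 0.05, 0.18 and 0.23, and those of the other pairs at -0.18 to 0.003. Every array correlated best with its own number, and the main fit did not include a pairing. With the replicate block 9736 genes and 5 laminin chains passed, Lama3 among them. Chains near background, Lama3 above all, are limited by signal over background.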
